A study of Homo sapiens and Mus musculus with 74 samples.

Results

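Genes whose mRNAs carry upstream open reading frames (uORFs) or that belong to the integrated stress response were followed in tissues of mice lacking the ribosomal protein RPL41. They were Atf4, Atf5, Ddit3, Ppp1r15a, Ppp1r15b, Ifrd1, Asns, Trib3, Sesn2 and Chac1, 10 genes of the 55174 in the mouse count table, each read from the transcript with the longest annotated protein. They were chosen with their RNA and footprint changes on loss of Rpl41 in kidney and brain already known, so the KO against WT values of those assays are given as a description and not as a test. The Rpl41 KO mice carry a CRISPR-Cas9 deletion of the whole Rpl41 coding sequence made in C57BL/6J zygotes, and WT mice were the controls. All libraries came from 10-week-old males with no treatment named. Kidney was measured by RNA-seq of poly(A)-selected RNA, by Ribo-seq, a readout of mRNA pieces shielded by ribosomes (footprints), and by disome-seq, which sequences fragments protected by stacked ribosomes, and brain by RNA-seq and Ribo-seq. Each of these 10 groups of tissue, assay and genotype had 3 libraries, 30 in all. The deletion is constitutive and whole organs were lysed, so fewer cells of a type and less RNA per cell cannot be told apart. The labels do not tie libraries to animals, and a p-value here measures the spread between libraries.

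In the integrated stress response, kinases that sense amino acid shortage, unfolded proteins, viral RNA or lack of haem phosphorylate the initiation factor eIF2, and general initiation falls. Under these conditions scanning ribosomes pass the inhibitory uORFs of Atf4 and related mRNAs more often and reach the main start codon. ATF4 then switches on genes of amino acid supply and of cell fate, and the phosphatase subunits encoded by Ppp1r15a and Ppp1r15b return eIF2 to its active state.

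The total over all transcripts was 44998381 to 55077048 counts in each kidney RNA-seq library, 11036643 to 42452425 in kidney Ribo-seq, 84433838 to 123745890 in brain RNA-seq, 9498663 to 35881929 in brain Ribo-seq and 1187636 to 3018963 in disome-seq. Rpl41 itself was covered by 3695 to 7502 reads per WT library and by 3 to 8 per KO library in kidney RNA-seq. In brain RNA-seq it had 8981 to 12199 against 6 to 12. Tubule markers summed to 4059 to 4485 CPM, the usual depth-scaled count, in kidney RNA-seq and to at most 4.38 in brain, and neuronal markers to 1478 to 1680 CPM in brain RNA-seq and to at most 0.575 in kidney, so each tissue carried its defining genes. Mitochondrial rRNA took 1.77% of counts in replicate 2 and 1.67% in replicate 3 of KO kidney RNA-seq, above the 0.436% to 0.962% of the remaining 4 libraries of that kind. Results that rest on them are given with and without them.

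The 5′ ends of the mRNAs set these genes apart from each other before any read is counted. An ATG upstream of the main start lay in the annotated 5′ UTR of 8 of the 10 genes, and 53.1% of 20601 coding genes with an annotated 5′ UTR have at least 1. Ppp1r15a had 7 upstream ATGs in a 5′ UTR of 764 bases, and another annotated transcript with the same protein has a 5′ UTR of 283 bases. Atf4 and Ppp1r15b had 3 each in 594 and 604 bases, Atf5 had 2 in 373 bases and Ddit3 had 2 in 186 bases. Ifrd1 had 1 in 233 bases, Sesn2 had 1 in 348 bases and Asns had 1 in 184 bases. Trib3 and Chac1 had none. The median coding gene had 1 upstream ATG and a 5′ UTR of 162 bases.

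**Figure D1:**
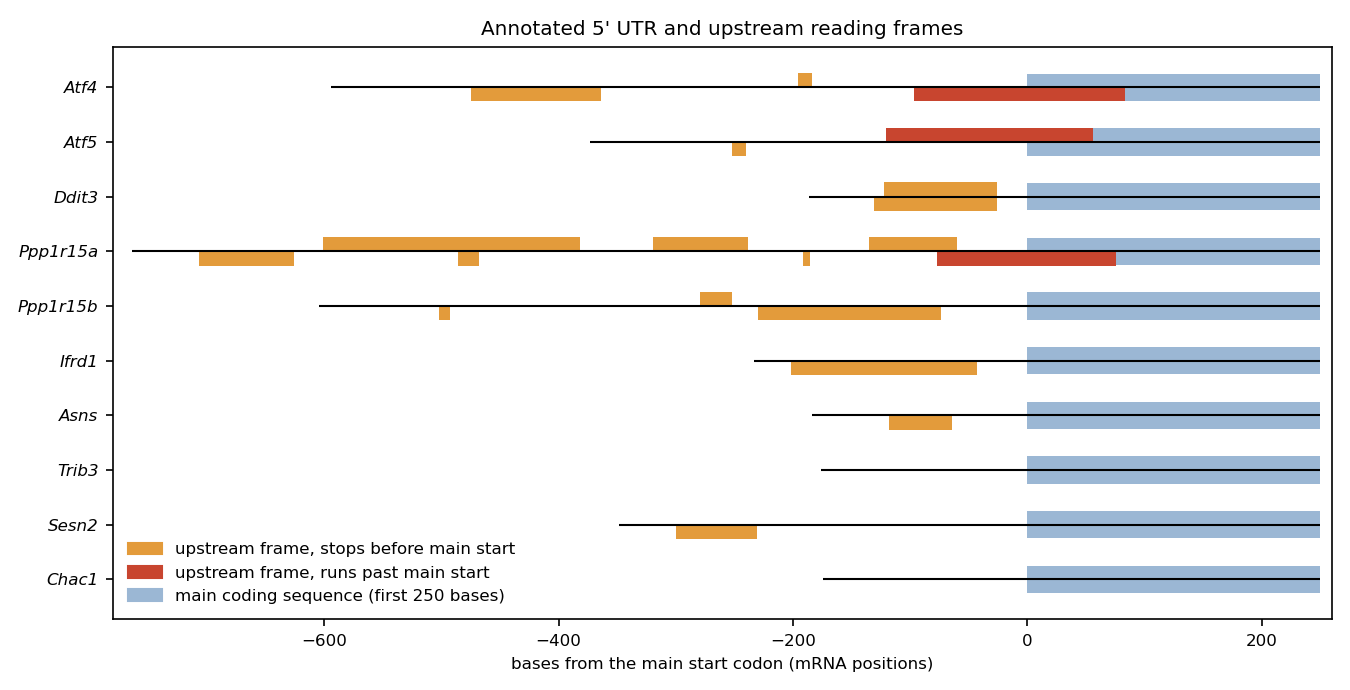
Annotated 5′ UTR of each mRNA (black line), with upstream reading frames that stop before the main start (orange), those that run past it (red) and the first 250 bases of the main coding sequence (blue), by distance in bases from the main start codon. Atf4, Atf5 and Ppp1r15a each have 1 frame that runs past the main start, and Trib3 and Chac1 have no upstream frame.

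Atf4 and Atf5, paralogous transcription factors, share a layout, with a very short frame followed by a long frame that overlaps the main start. In Atf4 (chr15:80255184-80257541, plus strand, GRCm38) the frames lie at mRNA positions 120 to 230, 399 to 410 and 498 to 677, and the main start is at 595. In Atf5 (chr7:44812256-44816658, minus strand) they lie at 122 to 133 and 253 to 429, and the main start is at 374. The short frames are shown whole, because each encodes 3 codons, with start and stop codons in capitals.
Atf4 short frame: ATGgcgtatTAG
Atf5 short frame: ATGgctctgTAG
The overlapping frames have 59 codons in Atf4 and 58 in Atf5. Their start contexts are shown with those of the inhibitory frames of Ddit3 (chr10:127290774-127296288, plus strand) and Ifrd1 (chr12:40201567-40223189, minus strand), with the start codon in capitals, since the bases around an ATG affect how often scanning ribosomes use it.
Atf4 overlapping frame: taagccATGgcgctc
Atf5 overlapping frame: gccgccATGgagtcc
Ddit3 first ATG: tatatcATGttgaag
Ddit3 second ATG: ttgaagATGagcggg
Ifrd1 frame: agaaacATGtatcgt
The Ddit3 frame, 34 codons from the first ATG, spans positions 56 to 160 and ends before the main start at 187, and the second ATG lies in the same frame at 65. Ddit3 encodes CHOP, a transcription factor that promotes cell death under prolonged stress. The annotation also lists this frame as a gene of its own with the same symbol and a count row, which is described apart. The Ifrd1 frame has 52 codons at positions 32 to 190, and the main start is at 234. Ifrd1 encodes a transcriptional coregulator, and its uORF is known to target the mRNA for decay when it is translated.

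Upstream of the genes, the letters TGATGNAA, a form of the element that ATF4 binds with C/EBP partners, were searched on both strands from 250 bases before to 50 after the annotated start. They occurred in Ppp1r15b, Trib3 and Chac1, and in 3.76% of 22471 promoter windows. The matches are shown with 6 bases on either side in the letters of each gene's own strand, with the match in capitals. The strand named is that of the element relative to its gene. Trib3 lies on the minus strand of its chromosome, so there the letters TGATGNAA read on the plus strand.
Ppp1r15b, chr1:133131106-133131113, plus strand: tccggcTGATGCAActcgcc
Trib3, chr2:152344039-152344046, minus strand: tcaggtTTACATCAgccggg
Chac1, chr2:119351049-119351056, minus strand: ctgccgTTGCATCActcctg

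Levels of the 10 mRNAs in WT tissue spanned a wide range, given here as WT RNA-seq CPM per kilobase of transcript. Atf4 was the highest in both tissues, at 20.5 ± 3.18 (SD, n = 3) in kidney and 36.0 ± 2.59 in brain. Ddit3 followed in both, at 9.32 ± 2.31 in kidney and 11.5 ± 1.23 in brain. In kidney the libraries of Ddit3, Ppp1r15b, Atf5 and Sesn2 overlapped from each to the next in this order, and Ifrd1, Ppp1r15a and Asns then stood apart from one another at 2.01 ± 0.0929, 1.41 ± 0.126 and 1.10 ± 0.128. In brain Asns was the third at 9.23 ± 0.828 and overlapped with Atf5 at 7.31 ± 1.57, and Ifrd1 at 3.598 ± 0.217 overlapped with Ppp1r15b at 3.31 ± 0.101, while the other neighbours in the order stood apart. Chac1, which degrades glutathione, was at 0.191 ± 0.0700 in kidney and 1.09 ± 0.0920 in brain. Trib3, a pseudokinase induced by ATF4 and CHOP, had the lowest mean in both, at 0.156 ± 0.0258 in kidney, where its libraries overlapped with those of Chac1, and 0.147 ± 0.0540 in brain. On footprints per kilobase the order changed. Sesn2 led in kidney at 4.56 ± 0.999 Ribo-seq CPM per kilobase, with overlapping libraries of Atf4 at 3.86 ± 0.492, and Asns led in brain at 26.5 ± 1.75, far above Atf4 at 5.40 ± 0.181.

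**Figure D2:**
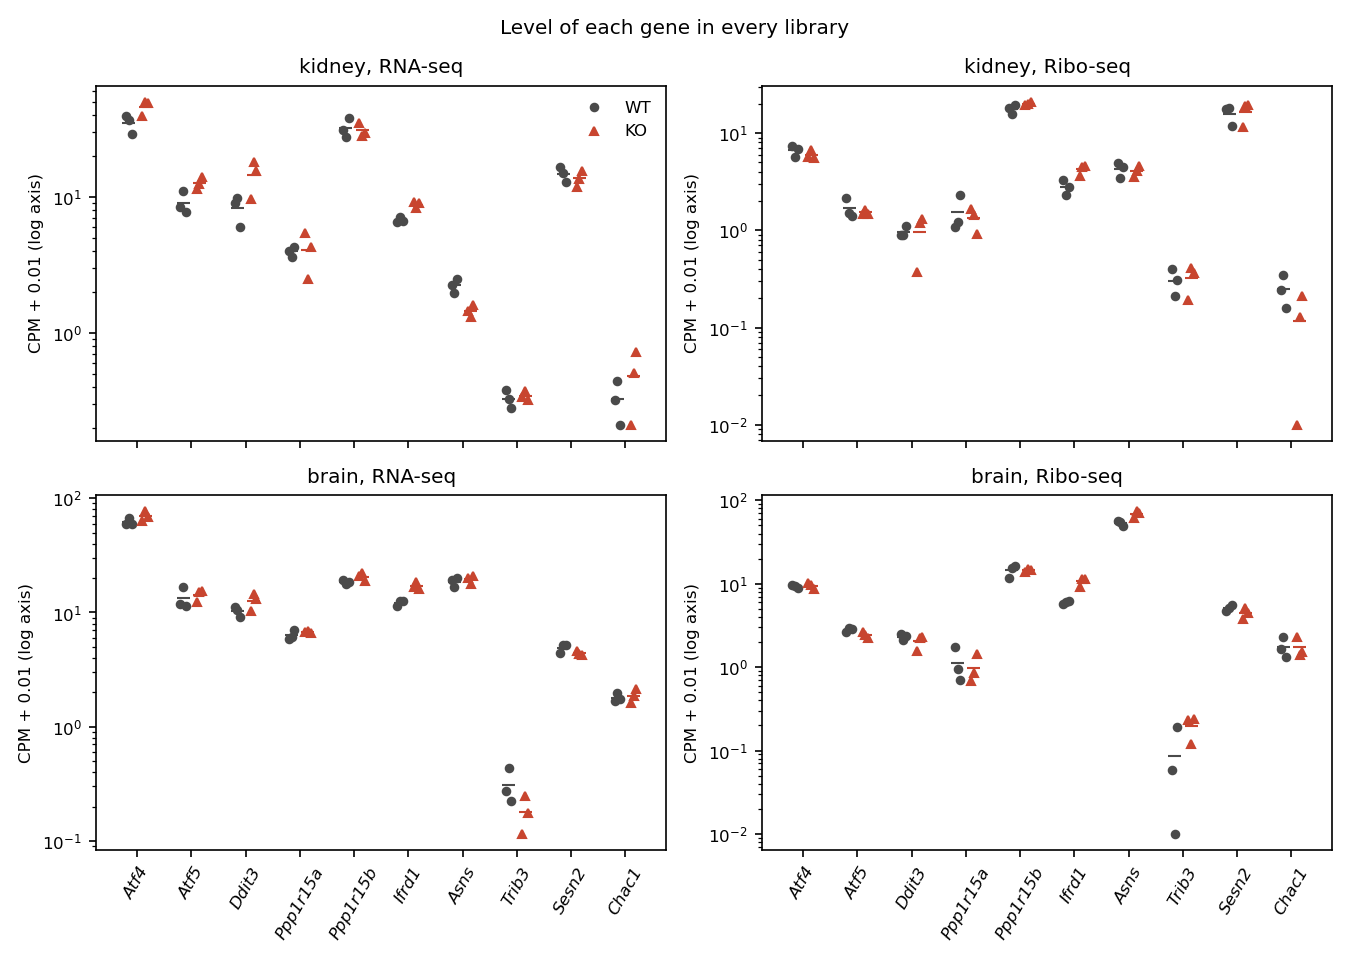
CPM + 0.01 on a log axis in every RNA-seq and Ribo-seq library of kidney and brain, WT as grey circles and KO as red triangles, with a bar at each group's mean. WT brain footprints of Ifrd1 (5.64 to 6.15 CPM) and Asns (49.4 to 56.1 CPM) lie below all KO libraries (9.21 to 11.5 and 61.8 to 73.9 CPM), and Trib3 has at most 5 footprints in any brain library.

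In WT tissue, the transcription factor mRNAs with inhibitory uORFs carried far fewer footprints than their RNA level, while Asns carried more. Footprints were compared with RNA by edgeR's quasi-likelihood test after scaling each library to the bulk of its transcripts, so a value is relative to other transcripts and not a number of ribosomes per mRNA. In WT kidney the log2 ratio of footprints to RNA was -2.79 for Atf4 (SE 0.20, adjusted p = 3.99e-06), -2.80 for Atf5 (SE 0.26, adjusted p = 2.1e-05) and -3.52 for Ddit3 (SE 0.30, adjusted p = 1.26e-05). The median over coding genes was -0.51. In numbers, the 3 WT kidney RNA-seq libraries held 1310 to 1917 Atf4 reads, or 29.1 to 39.5 CPM, and the 3 Ribo-seq libraries held 85 to 191, or 5.72 to 7.38 CPM. For Ddit3 they held 269 to 508 RNA reads (5.98 to 9.91 CPM) and 13 to 23 footprints (0.875 to 1.11 CPM). In WT brain the values were -3.05 for Atf4 (SE 0.16), -2.57 for Atf5 (SE 0.22) and -2.45 for Ddit3 (SE 0.20), with a median over coding genes of -0.39, and all 3 passed the test.

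The eIF2 phosphatase subunits and Ifrd1 also lay on the low side. Ppp1r15a, the subunit induced by stress, was at -1.79 (SE 0.31) in WT kidney and -2.76 (SE 0.27) in WT brain. Ppp1r15b, the constitutive subunit, was at -1.24 (SE 0.15) in kidney and nearer the coding median in brain at -0.66 (SE 0.16). Ifrd1 was at -1.67 (SE 0.20) in kidney and -1.34 (SE 0.15) in brain. All of these passed the test, although the brain value of Ppp1r15b did not when library totals alone set the scale (adjusted p = 0.0568).

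The effectors of amino acid and redox metabolism did not share this pattern. Asns, asparagine synthetase, had more footprints than RNA in brain, with a log2 ratio of 1.22 (SE 0.13, adjusted p = 4.22e-06). Its 3 WT brain libraries held 16.7 to 20.0 CPM in RNA-seq and 49.4 to 56.1 CPM in Ribo-seq. In kidney its ratio was 0.58 (SE 0.22, adjusted p = 0.0436), and with libraries paired by replicate number it was 0.56 (adjusted p = 0.0586), short of the threshold. Without any 1 of 4 WT kidney libraries, RNA-seq replicates 1 and 2 and Ribo-seq replicates 1 and 3, its adjusted p ranged from 0.0784 to 0.144. Sesn2, a leucine sensor upstream of mTORC1, was at -0.29 (SE 0.20) in kidney and -0.24 (SE 0.17) in brain, and Chac1 at -0.78 (SE 0.52) and -0.39 (SE 0.26), and none of these passed. Sesn2 in kidney was called lower without RNA-seq replicate 3 (adjusted p = 0.0453). Trib3 was at -0.44 (SE 0.43) in kidney and -1.96 (SE 0.70, adjusted p = 0.023) in brain, where its WT Ribo-seq libraries held 1, 0 and 4 reads, around the floor of 3 counts, so the size of the brain value is uncertain. Without brain Ribo-seq replicate 1 its adjusted p was 0.116, without replicate 2 it was 0.0639, with counts summed per gene 0.132 and with library totals alone 0.0558.

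In counts, 6 of the 10 genes were lower in footprints than in RNA in WT kidney and 1 was higher, where 33.3% of all transcripts tested were lower and 38.5% higher. The 1 higher in kidney, Asns, was not called with libraries paired by replicate number. In WT brain 7 of the 10 genes were lower and 1 was higher, against 35.5% and 36.8% of all transcripts. These shares cover every transcript tested, noncoding ones and several per gene included. Their median was 0.11 in kidney and 0.01 in brain, above the coding medians of -0.51 and -0.39. The share over coding genes alone was not taken. The median of the 10 was -1.45 in kidney and -1.65 in brain. Medians in kidney and brain were -1.43 and -1.50 for 5 p53 targets, and -1.06 and -0.84 for 7 further mRNAs with uORFs. For further ATF4 targets they were -0.24 and 0.01. A row counts the whole transcript, UTRs included. Coding sequence makes up 83.5% of Asns, 60.7% of Atf4, 56.6% of Ddit3, 46.75% of Atf5, 41.4% of Sesn2 and 37.4% of Ppp1r15b. The part of UTR length in these ratios was not tested. A change of scale moves every such value by one amount: with library totals alone the median over coding genes was -0.13 in kidney and -0.08 in brain.

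**Figure D3:**
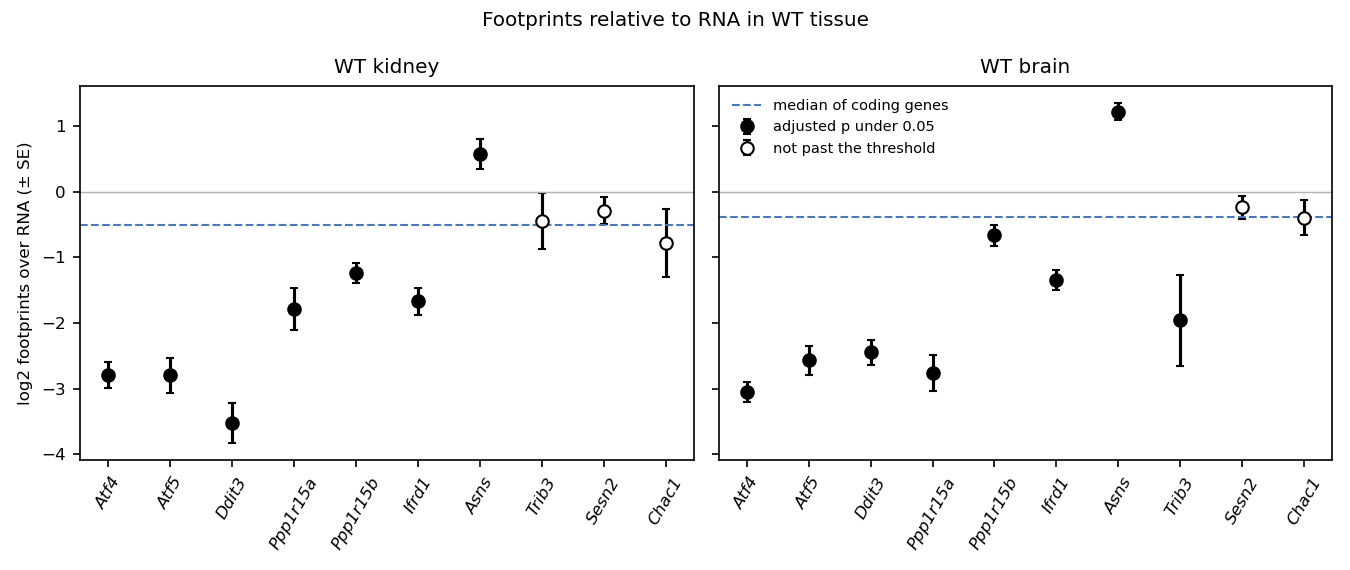
Log2 ratio of footprints to RNA (± SE) of each gene in WT kidney and WT brain, 3 Ribo-seq and 3 RNA-seq libraries each. Filled points passed the test, and the dashed line is the median over coding genes at -0.51 in kidney and -0.39 in brain. Atf4, Atf5 and Ddit3 lie between -3.52 and -2.45 in both tissues, and Asns lies above 0.

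A count row holds footprints over uORFs and over the main coding sequence together. Some genes have a shorter annotated transcript that covers the 5′ end, and its reads were set against the reads of the full row. This measure was chosen after its values were seen. In Atf4, ENSMUST00000229828 covers positions 2 to 101 and 385 to 943, which takes in the 3-codon frame, the overlapping frame and the first part of the coding sequence, and makes up 38.2% of the length. It held 76.4 ± 1.82% (SD, n = 3) of the footprints in WT kidney and 79.4 ± 4.72% in WT brain, and 26.4 ± 7.99% and 40.9 ± 3.54% of the RNA reads. In each tissue every WT Ribo-seq library lay above every WT RNA-seq library.

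Atf5 was more extreme. ENSMUST00000209072, at 32.8% of the length, covers positions 85 to 551 and 830 to 957 and so the overlapping frame whole. It held 94.6 ± 4.79% of the footprints in WT kidney, 91 of 97 reads, and 96.1 ± 3.97% in WT brain, 138 of 145 reads. Of the RNA reads it held 18.6 ± 8.63% and 32.0 ± 3.91%. Footprints of this mRNA therefore lay almost wholly between positions 85 and 957, in segments that take in 36.0% of the coding sequence.

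For Ddit3 the uORF has its own row, positions 56 to 160 or 11.8% of the mRNA, with no coding sequence of CHOP in it. In WT kidney 30 of 51 footprints on the Ddit3 row were counted there, 57.9 ± 10.6% over libraries, and in WT brain 80 of 123, 67.0 ± 8.09%. The same row held 8.34 ± 3.67% of RNA reads in kidney and 18.7 ± 1.28% in brain. Tested as a row of its own, the uORF had a log2 ratio of footprints to RNA of -0.59 (SE 0.41) in kidney and -0.63 (SE 0.23) in brain, close to the coding medians, where the whole Ddit3 row was at -3.52 and -2.45.

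In Asns, ENSMUST00000148349 covers positions 1 to 25 and 162 to 566, 21.3% of the length, and misses the uORF at 67 to 120. It held 22.3 ± 5.12% of footprints in WT kidney and 24.7 ± 1.22% in WT brain, near its share of the length, and 7.12 ± 1.84% and 9.16 ± 3.66% of RNA reads. Ifrd1 has only a shorter transcript that leaves the uORF out, ENSMUST00000171530, with 81.8% of the coding sequence. It held 50.5 ± 11.95% of footprints against 66.9 ± 5.35% of RNA reads in WT kidney, and 56.1 ± 8.23% against 74.7 ± 0.417% in WT brain. For Trib3 the stretch held 8 of 17 footprints in WT kidney and 4 of 5 in WT brain, too few for a comparison.

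In WT kidney the RNA shares lay below the share of the length for Atf4, Atf5, Ddit3 and Asns, and in WT brain they lay below it for Asns, near it for Atf5 and above it for Atf4 and Ddit3, and the part of this in the comparison with footprints was not tested. With 3 libraries against 3 an exact permutation test, two-sided, cannot go below p = 0.1. Atf4, Atf5, the Ddit3 uORF and Asns reached that value for WT footprints against RNA in both tissues, with the higher share in footprints. Ifrd1 reached it in both tissues with the higher share in RNA, as did another shorter Ddit3 transcript, ENSMUST00000139091, in brain. Trib3 reached it in kidney, on few reads, with the higher share in footprints. The adjusted p over the 46 such tests was 0.287 for each of these. Between genotypes the footprint shares differed little: in KO they were 73.8 ± 2.41% and 78.6 ± 3.24% for Atf4 in kidney and brain, 98.9 ± 0.926% and 96.7 ± 2.96% for Atf5, and 55.6 ± 9.62% and 67.9 ± 6.82% for the Ddit3 uORF, with exact permutation p from 0.3 to 1. Mean RNA shares of KO kidney were lower, at 14.9 ± 5.64% for Atf4, 11.1 ± 9.21% for Atf5, 1.27 ± 2.19% for Asns and 50.1 ± 12.4% for Ifrd1. The exact permutation p was 0.2, 0.4, 0.1 and 0.2. The lowest shares were in KO replicates 2 and 3, those with the high share of mitochondrial rRNA. These were 11.3% and 12.05% for Atf4, 5.155% and 6.41% for Atf5, 42.0% and 43.8% for Ifrd1, and 0% in both for Asns. Without them, KO replicate 1 was within the WT range for Atf4 (21.4%, WT 18.4% to 34.35%), Atf5 (21.7%, WT 11.05% to 28.0%) and Ifrd1 (64.4%, WT 62.1% to 72.7%). For Asns it was below all WT libraries, on 3 of 79 reads.

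**Figure D4:**
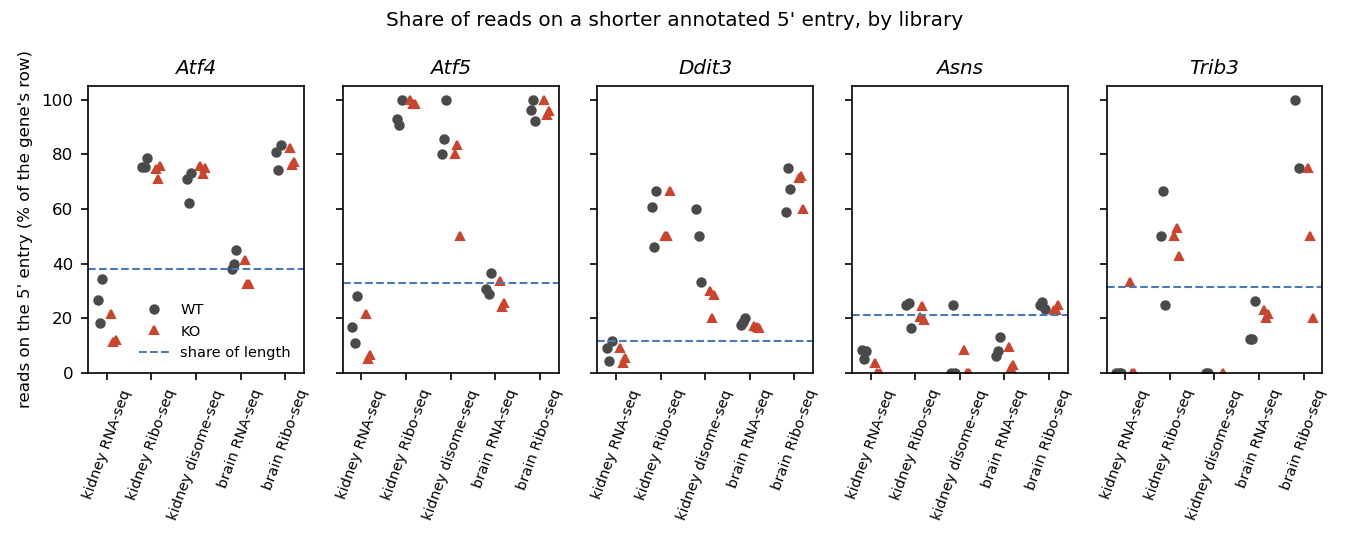
Percent of the reads of each gene's row that were counted on a shorter annotated transcript at its 5′ end, in every library, WT as grey circles and KO as red triangles. The dashed line is the share of the length. WT Ribo-seq libraries of Atf4 (75.3% to 78.5% in kidney) and Atf5 (90.9% to 100% in kidney) lie far above the line and above RNA-seq, and Trib3 rests on at most 17 footprints in WT.

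WT kidney and WT brain differed most in Asns, Chac1 and Sesn2. Asns was lower in kidney than in brain by 2.82 on the log2 scale in RNA (log2 ratio -2.82, SE 0.17, adjusted p = 2.39e-07) and lower still in footprints (log2 ratio -3.54, SE 0.15, adjusted p = 8.13e-11). Its WT libraries held 1.95 to 2.47 CPM in kidney and 16.7 to 20.0 CPM in brain RNA-seq. Chac1 was lower in kidney too, at -2.24 (SE 0.39) in RNA and -2.70 (SE 0.39) in footprints. Sesn2 went the other way, at 1.86 (SE 0.19) and 1.72 (SE 0.17), with 12.9 to 16.6 CPM in kidney and 4.37 to 5.19 CPM in brain RNA-seq.

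Smaller differences passed the test for Ppp1r15b, higher in kidney at 1.05 (SE 0.15) in RNA and 0.38 (SE 0.16) in footprints, and for Ifrd1, lower at -0.58 (SE 0.16) and -0.99 (SE 0.18). Atf4 was lower in kidney at -0.56 (SE 0.19) in RNA and -0.39 (SE 0.14) in footprints. Ddit3 RNA was nearly level between tissues at -0.05 (SE 0.25), while its footprints were lower in kidney at -1.22 (SE 0.25), and Atf5 RNA was at -0.29 (SE 0.24) with footprints at -0.61 (SE 0.23). Ppp1r15a did not pass in either, at -0.41 (SE 0.17) and 0.44 (SE 0.39), nor did Trib3 RNA at 0.32 (SE 0.46). The footprint calls of Atf4, Atf5 and Ppp1r15b were near the threshold, with adjusted p of 0.0244, 0.0286 and 0.0436, and each was lost when single libraries were left out: Atf4 without brain replicate 1 (adjusted p = 0.0532) or kidney replicate 2 (0.127), Atf5 without brain replicate 2, brain replicate 3, kidney replicate 2 or kidney replicate 3 (0.0567 to 0.101), and Ppp1r15b without brain replicate 1, brain replicate 2, kidney replicate 1 or kidney replicate 3 (0.0588 to 0.227). Ppp1r15b also lost it under DESeq2 (0.125), at least 10 counts in every library (0.0818), sums per gene (0.0781) and library totals alone (0.101), Atf5 under DESeq2 (0.0619), and Atf4 with at least 1 count in any library (0.0545). Atf4 lost its RNA call without kidney replicate 3 (adjusted p = 0.0573) or brain replicate 2 (0.0674). Ppp1r15a RNA, at an adjusted p of 0.0621, was called lower in kidney with DESeq2 (0.0399), with at least 10 counts in every library (0.00935), with counts summed per gene (0.0266) and with library totals alone (0.00934).

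In RNA, 4 of the 10 genes were lower in kidney and 2 higher, where 35.8% and 28.3% of transcripts were. In footprints 6 of the 9 tested were lower and 2 higher, against 35.8% and 35.0%. For translation efficiency (TE), footprints relative to RNA, the difference between tissues was tested as the term of assay by tissue. None of the 10 passed edgeR's test, which called 19.8% of transcripts, while DESeq2 called 3 of the 10 and 23.8% of transcripts. An unadjusted p under 0.05 was found for 4 of the 10 and for 32.9% of transcripts. Those 4 were Ddit3 at -0.998 (SE 0.37, adjusted p = 0.0715), Ppp1r15a at 1.04 (SE 0.44), Ppp1r15b at -0.51 (SE 0.24) and Asns at -0.56 (SE 0.22). The DESeq2 calls were Ddit3, Ppp1r15b and Asns, all lower in kidney, and its scaling also lowered the median over all transcripts from 0.26 to -0.0030. By edgeR, Asns was called without brain Ribo-seq replicate 1 (adjusted p = 0.0450), 2 (0.0415) or 3 (0.0263), Ppp1r15b without brain Ribo-seq replicate 1 (0.0114), and Ddit3 without brain Ribo-seq replicate 2 (0.0392) or kidney RNA-seq replicate 3 (0.00715). With replicate number as a block, Ddit3 was called too, at -1.02 (adjusted p = 0.0490).

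Loss of Rpl41 was followed next, beginning with Ifrd1, the gene whose footprints moved furthest. In brain Ribo-seq its WT libraries held 5.64, 6.00 and 6.15 CPM and its KO libraries 9.21, 11.5 and 11.5 CPM. In brain RNA-seq they held 11.3, 12.5 and 12.7 CPM against 16.7, 18.4 and 16.1 CPM. The KO libraries lay above all WT libraries in both. In kidney Ribo-seq the values were 3.25, 2.29 and 2.80 CPM in WT and 3.62, 4.48 and 4.596 CPM in KO, and in kidney RNA-seq 6.58, 7.16 and 6.67 CPM against 9.19, 8.22 and 8.98 CPM, again without overlap. The log2 fold changes were 0.89 (SE 0.13) for brain footprints, 0.57 (SE 0.12) for brain RNA, 0.68 (SE 0.16) for kidney footprints and 0.53 (SE 0.16) for kidney RNA. Footprints and RNA of the whole Ifrd1 row thus differed in the same direction in both tissues, and the TE change was 0.15 (SE 0.23) in kidney and 0.35 (SE 0.20) in brain. In KO kidney RNA-seq replicates 2 and 3, the shorter transcript with 81.8% of the coding sequence held 161 and 178 reads. It held 326 in KO replicate 1 and 210, 228 and 218 in WT, not scaled by depth. The part of this in the kidney RNA and TE values was not tested. Of the 3378 bases of the Ifrd1 transcript, 8.86% of 28-base words also occur in the opposite strand of Gm7008, and the strand setting of the counting is not given in the sources used here.

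For Atf4, Atf5 and Ddit3 in kidney, the mean RNA level of the whole row was higher in KO than in WT, while the footprint values lay near 0 with mixed signs, and neither RNA nor TE passed the test for any of them. Ddit3 RNA was at 8.99, 9.91 and 5.98 CPM in the WT kidney libraries and at 9.68, 18.3 and 15.6 CPM in KO, so KO replicate 1 lay within the WT range and the other two above it. Its footprints were at 0.889, 0.875 and 1.11 CPM in WT and 0.362, 1.18 and 1.29 CPM in KO, with KO replicate 1, at 4 reads, below all WT libraries and the other two above them. Atf4 RNA was at 39.52, 37.3 and 29.1 CPM in WT and at 39.55, 50.05 and 49.7 CPM in KO, so KO replicate 1 was level with the highest WT library. Atf4 footprints were at 7.38, 5.72 and 6.85 CPM in WT and 5.71, 6.76 and 5.54 CPM in KO and overlapped. Atf5 RNA was at 8.45, 11.1 and 7.69 CPM in WT and 11.4, 12.5 and 14.2 CPM in KO, without overlap. Its footprints, at 2.16, 1.48 and 1.40 CPM against 1.45, 1.63 and 1.47 CPM, overlapped. The RNA levels did not rise alike along the mRNAs. On the shorter 5′ transcript of Atf4, kidney RNA reads, not scaled by depth, were 510, 351 and 450 in WT and 467, 264 and 271 in KO. On that of Atf5 they were 69, 63 and 97 in WT and 136, 30 and 41 in KO. The Ddit3 uORF row had 40, 22 and 31 in WT and 48, 32 and 38 in KO. The part of this in the RNA and TE changes was not tested.

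The log2 fold changes in kidney RNA were 0.98 (SE 0.31) for Ddit3, 0.64 (SE 0.21) for Atf5 and 0.56 (SE 0.20) for Atf4, and in kidney footprints 0.26 (SE 0.32), -0.13 (SE 0.22) and -0.08 (SE 0.13). The TE changes were -0.76 (SE 0.53), -0.74 (SE 0.32) and -0.64 (SE 0.26). The highest KO RNA values were those of the replicates with the high share of mitochondrial rRNA. Without KO replicates 2 and 3 together, an alternative chosen after the data were seen, the RNA values were 0.26 for Ddit3, 0.37 for Atf5 and 0.21 for Atf4, and the TE values -0.07, -0.50 and -0.32. The RNA value of Ifrd1 without them was 0.48. In brain RNA the 3 genes were at 0.38 (SE 0.20), 0.19 (SE 0.21) and 0.25 (SE 0.15) and in brain footprints at -0.16 (SE 0.20), -0.18 (SE 0.18) and 0.05 (SE 0.12), with overlapping groups throughout. Words of 28 bases shared with opposite-strand transcripts made up 3.24% of Atf5, with Il4i1 and Nup62, and for Ddit3 13.79% were shared in all, with the uORF row on the same strand and with Mars on the opposite strand.

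**Figure D5:**
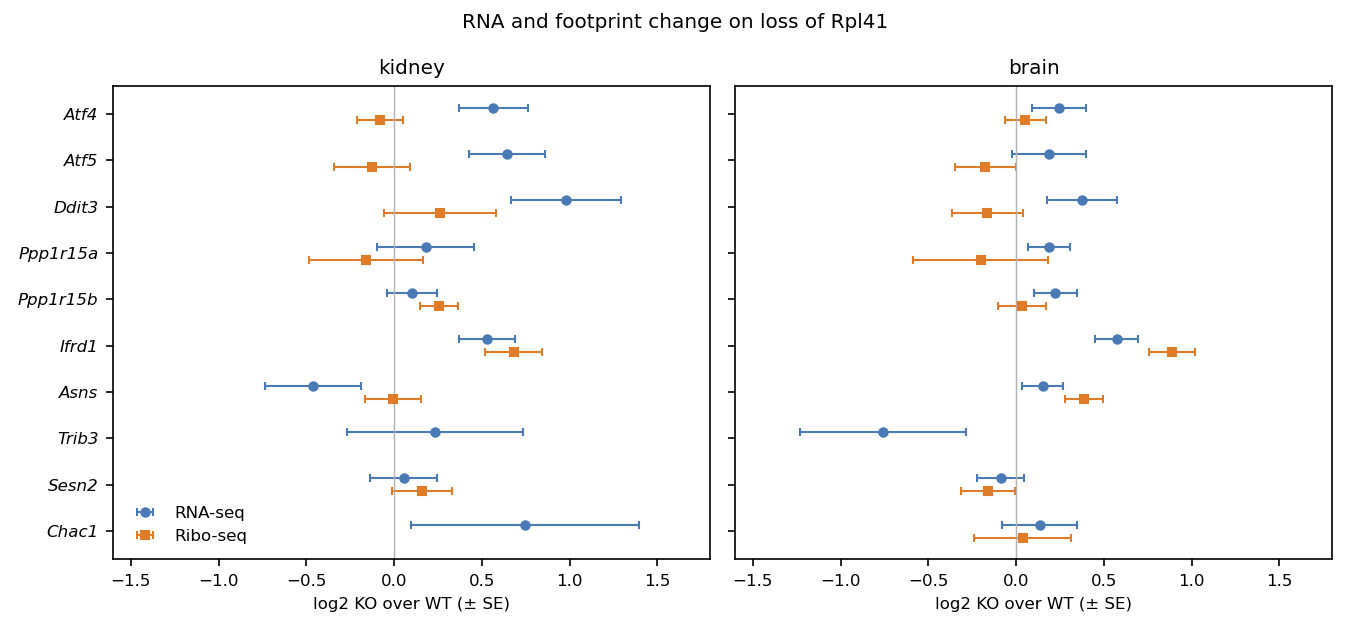
Log2 fold change of KO over WT (± SE) of RNA (blue circles) and footprints (orange squares) for each gene in kidney and brain, 3 libraries per group. In kidney, Atf4, Atf5 and Ddit3 have RNA values between 0.56 and 0.98 and footprint values between -0.13 and 0.26. Ifrd1 lies above 0.5 in all 4, and genes with too few footprints to be fitted have no square.

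The effectors and the phosphatase subunits did not share a direction, and the values with few reads were uncertain. Asns RNA in kidney was at 2.25, 1.95 and 2.47 CPM in WT and 1.43, 1.29 and 1.59 CPM in KO, all KO libraries below all WT libraries, with a log2 fold change of -0.46 (SE 0.27), while its kidney footprints were at -0.01 (SE 0.16). In brain its footprints were at 56.1, 54.5 and 49.4 CPM in WT and 61.8, 73.9 and 70.6 CPM in KO, all above WT, with a fold change of 0.39 (SE 0.11) on the log2 scale, and its RNA was at 0.15 (SE 0.12). The direction of Asns thus differed between kidney RNA and brain footprints. Chac1 RNA was at 0.74 (SE 0.65) in kidney, on 9 to 32 reads, and -0.61 without KO replicates 2 and 3, and at 0.13 (SE 0.21) in brain. Trib3 RNA was at 0.24 (SE 0.50) in kidney and -0.76 (SE 0.47) in brain, on 12 to 40 reads. Sesn2 lay between -0.16 and 0.16 in all 4 assays, and Ppp1r15a and Ppp1r15b lay between -0.20 and 0.26. Without KO replicates 2 and 3, kidney RNA was at -0.26 for Sesn2, 0.50 for Ppp1r15a and -0.58 for Asns. Of the words of Ppp1r15b, 11.53% are shared with other genes, most with Gm26616 on the opposite strand.

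Counts of calls among the 10 genes are read only beside those over all transcripts, since the genes were chosen on these contrasts. In kidney RNA edgeR called none of the 10 at the adjusted p threshold of 0.05, DESeq2 called none, and 0.00992% of transcripts were called by edgeR. An unadjusted p under 0.05 was found for 4 of them and for 16.8% of transcripts. Without KO replicate 1, which leaves the KO libraries with the high share of mitochondrial rRNA, 17.0% of transcripts were called, and with them Ddit3 (adjusted p = 0.0176), Atf4 (0.0297) and Atf5 (0.0416). In kidney footprints Ifrd1 was called (adjusted p = 0.0262), 1 of 8 tested, where 7.76% of transcripts were called. That call was lost with DESeq2 (adjusted p = 0.0564), with counts summed per gene (0.0541), with library totals alone (0.0616), and without KO replicate 2 (0.108), KO replicate 3 (0.131) or WT replicate 2 (0.0741). In brain RNA none of 10 was called by edgeR or DESeq2, beside 0.0134% of transcripts called by edgeR, and 1 had an unadjusted p under 0.05, beside 3.46% of transcripts. In brain footprints none of 9 was called by edgeR, beside 0.0345% of transcripts, and 2 had an unadjusted p under 0.05, beside 12.6% of transcripts. Ifrd1 there had an adjusted p of 0.0509, and it was 0.00409 with DESeq2, 2.2e-05 with all transcripts of at least 1 count, 0.0465 with replicate number as a block and 0.0289 without KO replicate 1. By edgeR it stayed above 0.05 with at least 10 counts in every library (0.169), sums per gene (0.122) and library totals alone (0.0711). The same held without KO replicate 2 (0.417) or 3 (0.416), or without WT replicate 1 (0.142), 2 (0.144) or 3 (0.0734). For TE none of 10 was called in either tissue, where 0.0% of transcripts were called in kidney and 0.0% in brain, and DESeq2 called none of them either. An unadjusted p under 0.05 was found for 2 of 10 in kidney, beside 18.9% of transcripts, and for 0 of 10 in brain, beside 4.73%. Without KO RNA-seq replicate 1, Atf4 was called lower in kidney TE (adjusted p = 0.0450), with 17.8% of transcripts called.

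By position of the libraries, 3 of 10 genes in kidney RNA (Atf4, Atf5 and Ifrd1) had all KO libraries above all WT libraries, as did 8.8% of genes, and 1 (Asns) had all below, as did 12.0%. Atf4 is counted there on a near tie, 39.55 CPM in KO replicate 1 against 39.52 CPM in WT replicate 1. These counts too are a description, since the genes were chosen on these contrasts. In kidney footprints 1 of 8 lay above and 0 below, against 8.94% and 21.8% of genes. In brain RNA 1 of 10 lay above and 0 below, against 6.9% and 5.64%, and in brain footprints 2 of 9 above and 0 below, against 7.45% and 12.0%.

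Sums of cell markers differed between genotypes in some of the same libraries. Pancreatic acinar markers, 15 genes, summed to 352, 14.9 and 42.2 CPM in WT kidney Ribo-seq replicates 1, 2 and 3. In KO they summed to 7.79 to 10.5 CPM. Of the 15, 6 had enough reads to be tested, and all 6 were called lower in KO, beside 3.01% of transcripts. Genes this low in KO can pass the filter through the WT libraries alone, so the direction of these 6 is not a separate result. Replicate 1 was also the highest in WT brain Ribo-seq, with 135.3, 3.16 and 1.78 CPM, against 1.10 to 4.38 CPM in KO. In kidney RNA-seq the sums were 32.6 to 46.0 CPM in WT and 42.0 to 48.6 CPM in KO, and 10 of the 15 were at 0 in all WT libraries and 11 in all KO libraries. Kidney tubule markers, none at 0, summed to 4220 to 5012 CPM in WT and 5759 to 6082 CPM in KO kidney Ribo-seq. Of these, 2 of 7 were called higher, Lrp2 and Cubn, beside 4.75% of transcripts. In kidney RNA-seq their sums went the other way, at 4250 to 4485 CPM in WT and 4059 to 4201 CPM in KO, with 0 of 7 called. Blood markers, 5 genes with none at 0, summed to 771.5 to 2394 CPM in WT and 404.9 to 734.5 CPM in KO brain RNA-seq, and to 646 to 1793 against 339.8 to 441 CPM in brain Ribo-seq, with 0 called. In kidney Ribo-seq the sums of white blood cell markers were 8.91 to 19.0 CPM in WT and 13.5 to 16.4 in KO, those of immediate early genes 49.4 to 71.3 and 60.7 to 72.9, and those of p53 targets 33.2 to 39.8 and 24.5 to 33.7. Of these lists 1 of 2 white cell markers (Ptprc), 1 of 11 immediate early genes (Dusp1) and 0 of 5 p53 targets tested there were called, beside 7.76% of transcripts. The calls of Ptprc and Dusp1 were upward, and none was called in the other KO against WT comparisons of RNA and footprints. Glial markers summed to 1756 to 2015 CPM in WT and 2009 to 2153 CPM in KO brain RNA-seq, with 0 of 4 called. The part of these cells, of the mitochondrial rRNA and of depth in the values above was not tested.

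Disome-seq of kidney did not enter the choice of the genes. Of the 10, 5 had enough reads to be tested for KO against WT. None passed (edgeR, 0 also at an unadjusted p under 0.05 and 0 by DESeq2), where 0.222% of transcripts were called and 10.8% had an unadjusted p under 0.05. The log2 fold changes were 0.54 (SE 0.42) for Ddit3, 0.28 (SE 0.26) for Atf4, 0.24 (SE 0.34) for Ppp1r15b, -0.01 (SE 0.37) for Ifrd1 and -0.33 (SE 0.31) for Sesn2. The reads were few, with 15 to 38 on Atf4 and 6 to 10 on Ddit3 in each library. Values larger than their SE, such as those of Ddit3 and Atf4, did not pass, so changes of these sizes could be missed at this depth. Of the Ddit3 reads 13 of 26 fell on the uORF row in WT and 7 of 27 in KO, or 47.8 ± 13.5% against 26.2 ± 5.41% over libraries, with an exact permutation p of 0.1, the smallest that 3 against 3 allows.

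Against single-ribosome footprints of the same tissue, disome reads of WT kidney were over-represented on Ddit3, Ppp1r15a, Ifrd1 and Atf4 and under-represented on Asns and Ppp1r15b. This comparison was chosen after the values were seen. Ddit3 was at 3.32, 3.31 and 4.80 CPM in the disome libraries and 0.875 to 1.11 CPM in Ribo-seq, a log2 ratio of 2.03 (SE 0.36, adjusted p = 2.22e-04). Ppp1r15a was at 1.44 (SE 0.41), Ifrd1 at 1.11 (SE 0.31) and Atf4 at 0.87 (SE 0.21), all higher. Asns was at -1.16 (SE 0.39) and Ppp1r15b at -0.96 (SE 0.23). Atf5, at 0.72 (SE 0.44), and Sesn2, at -0.21 (SE 0.20), did not pass. The test found 4 of 8 higher and 2 lower, where 25.3% of transcripts were higher and 25.3% lower, and the median over coding genes was -0.16. Ppp1r15a lost its call without disome replicate 1 (adjusted p = 0.0946) and Ifrd1 without disome replicate 2 (0.133), and Ppp1r15b lost its call with counts summed per gene (0.0568). Asns, on 4 or 5 disome reads per library, lost its call without disome replicate 1 (0.0782), disome replicate 2 (0.111) or Ribo-seq replicate 1 (0.0519). In KO kidney the values were 2.32 (SE 0.41) for Ddit3, 2.40 (SE 0.39) for Ppp1r15a, 0.44 (SE 0.29) for Ifrd1, 1.25 (SE 0.21) for Atf4, -0.44 (SE 0.43) for Asns, -0.95 (SE 0.20) for Ppp1r15b, 0.79 (SE 0.43) for Atf5 and -0.68 (SE 0.27, adjusted p = 0.0407) for Sesn2. There 3 of 8 were called higher (Ddit3, Ppp1r15a and Atf4) and 2 lower (Ppp1r15b and Sesn2), beside 25.7% of transcripts higher and 25.7% lower. Sesn2 lost its call under DESeq2 (0.128) and with sums per gene (0.227), and Ppp1r15b with sums per gene (0.0602), where Ifrd1 (0.00104) and Atf5 (0.0492) were called higher. The difference between genotypes was not tested. Ribo-seq fragments are 17 to 34 bases and disome fragments 50 to 80 bases long, and the effect of this on counting short uORF rows was not tested.

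Other genes of the pathway were followed in lists chosen for their role. Of the 7 genes for eIF2 kinases and eIF2 subunits and the 5 for eIF2B, the exchange factor that phosphorylated eIF2 blocks, none was called in any of the 5 comparisons of KO with WT in RNA, footprints or disomes. In kidney RNA Eif2s2, the beta subunit, was at 0.85 (SE 0.29, adjusted p = 0.292) and Eif2ak3, the kinase PERK, at -0.38 (SE 0.22). The median of the first list was 0.23 there and that of eIF2B was 0.36, where coding genes had 0.10.

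Of 30 further ATF4 targets, 27 were tested in kidney RNA and none was called. In kidney footprints 1 of 27 was called, Aars, alanyl-tRNA synthetase, at 0.41 (SE 0.11, adjusted p = 0.0403), beside 7.76% of all transcripts, and the list had a median of 0.16 where coding genes had -0.02. Aldh18a1, of proline synthesis, was at 0.73 (SE 0.22, adjusted p = 0.0566) and Gdf15, a stress hormone, at -0.65 (SE 0.24). In brain 0 of 28 were called in RNA and 0 of 28 in footprints, with medians of 0.14 and 0.12 beside coding medians of 0.10 and -0.03. Slc7a3, a transporter of basic amino acids, was at 0.52 (SE 0.14), and Aars at 0.49 (SE 0.11) in brain footprints. In disomes 0 of 17 were called, with a median of -0.11. Among 7 further mRNAs with uORFs, Eprs, glutamyl-prolyl-tRNA synthetase, was called higher in kidney footprints at 0.53 (SE 0.10, adjusted p = 0.0127), 1 of 7 beside the same 7.76%, and Slc35a4 was at -0.39 (SE 0.11, adjusted p = 0.0507). None of the 7 was called in kidney RNA, brain RNA, brain footprints or disomes.

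The genes most like Atf4 and Ifrd1 were sought over the 12 RNA-seq and the 12 Ribo-seq libraries, by Pearson's r of log2(CPM + 1) after the mean of each tissue was removed. The libraries share genotype, tissue and depth, so r is a description over all genes. In RNA the closest to Atf4 among 15343 genes were 2810025M15Rik (0.978), Nme6 (0.974) and Ensa (0.973), with Ddit3 at 0.942, Atf5 at 0.828 and Asns at -0.730. The closest to Ifrd1 were Trim27 (0.903), Pus1 (0.896) and Fbxo9 (0.859), with Atf4 at 0.611. In footprints, among 17783 genes, they were AC087233.2 (0.930), Prmt1 (0.903) and Spop (0.891) for Atf4, and Nup88 (0.969), Gfpt1 (0.968) and Trap1 (0.960) for Ifrd1, with Asns at 0.707.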

How the data were processed

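RNA-seq, Ribo-seq and disome-seq libraries of mouse kidney and brain were used. The authors trimmed reads with cutadapt, removed rRNA reads and aligned the rest to the mouse genome (mm10) with STAR, with multimapping reads allowed. The authors deposited whole read counts per transcript from featureCounts (Subread), with no normalization, and versions are not given in the sources used here. A read can be counted on several transcripts, so totals exceed reads. CPM values divide counts by these totals. A table of human transcripts was left out, because the titles on its 28 value columns belong to mouse samples, and 44 samples were not analysed here.

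Of 142604 transcripts, 141374 matched GENCODE M21 (GRCm38) by identifier without version, and UTRs, reading frames and promoter windows were read from it and its genome. The genes, pathway lists and markers were chosen with earlier results of these data known. The symbols found 11 genes, the other being the annotated Ddit3 uORF. Named genes are the 10 members, Rpl41, up to 3 list members with the largest rise and 3 with the largest fall in a comparison, and the 3 closest by correlation. The 5′ shares and the disome against Ribo-seq comparisons were chosen after the data were seen.

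Tests were edgeR's quasi-likelihood F-tests over all transcripts after filterByExpr and TMM, per tissue and assay, adjusted by Benjamini-Hochberg across every tested transcript, at a threshold of 0.05. Genotype, assay or tissue was the only term, with an interaction for TE. SE was taken as the absolute log2 value divided by the root of the F statistic. Counts of 3 or fewer are a floor, and coordinates are 1-based. Alternatives were DESeq2, library totals alone, filters of at least 1 count in any library and 10 in every library, sums per gene, a replicate block and each library left out in turn. Deviations of same-numbered libraries correlated above 0.1 in all 3 pairs for WT kidney Ribo-seq with RNA-seq (0.163 to 0.24), WT brain Ribo-seq with RNA-seq (0.203 to 0.429) and WT kidney Ribo-seq with disome-seq (0.273 to 0.406). The main fits did not use this pairing, which entered only as the replicate block among the alternatives. Of the 17 pairs of groups, 6 passed in all, the others being KO kidney Ribo-seq with RNA-seq (0.108 to 0.139), WT kidney RNA-seq with disome-seq (0.13 to 0.172) and KO kidney with KO brain RNA-seq (0.166 to 0.325). For WT against KO, and for WT kidney against WT brain, they did not in any assay. The scripts were tested on simulated counts, with 100 transcripts changed by 1 and 100 by 2 on the log2 scale. For KO against WT, 1% and 48% of them were called in kidney RNA, and 74% and 96% in brain footprints. In WT the shares were 12% and 74% for kidney footprints against RNA, and 11% and 68% for kidney against brain RNA. The lack of calls in kidney RNA therefore does not show that RNA was unchanged. Software was matplotlib 3.10.9, scipy 1.17.1, pandas 2.3.3 and numpy 2.4.6 in Python 3.11.15, and DESeq2 1.42.0, limma 3.58.1 and edgeR 4.0.16 in R 4.3.3.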

Additional observations from a re-analysis of the deposited data

How the results depend on the processing

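For KO against WT, the number of the 10 genes called in kidney footprints went from 1 to 0 under DESeq2, under counts summed per gene and under library totals alone, and in brain footprints from 0 to 1 under DESeq2, under the filter of 1 count in any library and under the replicate block, Ifrd1 in each case. With each library left out in turn it ranged from 0 to 3 in kidney RNA, 0 to 1 in kidney footprints, 0 to 1 in brain footprints and 0 to 1 in kidney TE, and stayed at 0 to 0 in brain RNA, brain TE and disomes. Without KO kidney RNA-seq replicate 1, Ddit3 (log2 fold change 1.24), Atf4 (0.72) and Atf5 (0.77) were called in kidney RNA and Atf4 (-0.77) in kidney TE. For WT kidney against brain TE, the number went from 0 to 3 under DESeq2, 1 under at least 10 counts in every library, 1 under library totals alone and 1 under the replicate block (Ddit3), and ranged from 0 to 2 with a library left out. WT footprints against RNA ranged from 6 to 8 calls in kidney and 7 to 8 in brain, WT kidney against brain from 5 to 6 in RNA and 6 to 7 in footprints, and WT disomes against footprints from 4 to 6. With at least 10 counts in every library the calls of disomes against footprints fell to 2 in WT and 3 in KO, since fewer of the genes could be tested. The replicate block changed no other call of a gene than those of Asns, Ifrd1 and Ddit3 given here and above. No called value changed sign under any alternative tried. Library totals alone moved the median over all transcripts from -0.03 to -0.19 in kidney RNA of KO against WT and from -0.20 to -0.45 in WT kidney against brain RNA. Over all transcripts, edgeR and DESeq2 called 7 and 540 in kidney RNA, 5838 and 3533 in kidney footprints, 12 and 23 in brain RNA, 28 and 359 in brain footprints, 0 and 4129 in kidney TE, and 0 and 18 in brain TE for KO against WT. With at least 1 count in any library edgeR called 9936 in kidney footprints, 1573 in brain footprints, 278 in disomes, 11 in kidney TE and 5 in brain TE, and with the replicate block 80 in brain footprints and 241 in disomes (77 without it). With at least 10 counts in every library it called 0 in kidney RNA, brain RNA and brain footprints and 17 in disomes. Summing per gene or requiring 10 counts lowered the counts of the WT comparisons, as fewer features were tested. With 3 libraries per group and few footprints on Trib3, Chac1 and Ddit3, depth limits what these tests can find, and intervals and floors cover counting error only.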
